A study of Homo sapiens with 4 samples.

Results

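Isolated vehicle-only FOXA2 sites are peaks called in vehicle-treated PC3 cells with no overlapping peak called after GSK2879552 and no called GSK2879552 summit within 100 kb. A vehicle peak on chromosomes 1 to 22 or X was taken when its interval shared no base with a GSK2879552 interval and its summit lay more than 100 kb from every GSK2879552 summit. The rule gave 2089 sites, which is 9.92% of the 21065 vehicle peaks on these chromosomes (95% exact binomial interval 9.52 to 10.3, counting error only) and 26.1% (25.1 to 27.0) of the 8013 vehicle-only peaks. Vehicle-only peaks were 38.0% of all vehicle peaks. Because the sites were chosen by their presence in the vehicle list and by the overlap and distance to the GSK2879552 list, these counts describe the 2 lists and test nothing. The isolation is from GSK2879552 sites only, and 899 of the 2089 sites had another vehicle summit within 100 kb.

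The data came from chromatin immunoprecipitation and sequencing (ChIP-seq) of FOXA2 in PC3, an androgen-independent human prostate cancer cell line, given vehicle or 50 µM GSK2879552 for 4 hours in medium with 5% charcoal-stripped serum. The sample descriptions name ATAC-seq, whereas titles and series name FOXA2 ChIP-seq, and the treatment text of the vehicle samples repeats that of the treated ones; the titles and the agent label were followed. Each group has 1 peak list that covers 2 sequencing lanes, called technical replicates in the labels, so spread between cultures was not measured and no p-value is given. Peak lists hold no expression values, so the identity of the line was not checked against marker genes. Depth, read from the background as reads per kb, was 6.17 for vehicle and 6.44 for GSK2879552. That reading assumes a background built without a control library and a fragment length equal to the shortest interval of each list.

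FOXA2 is a forkhead transcription factor of endoderm-derived tissues. Forkhead factors of the FOXA family can bind their sites in closed chromatin and help to open enhancers, and many of these enhancers lie far from any promoter. GSK2879552 inhibits LSD1 (KDM1A), a demethylase that removes methyl groups from lysine 4 of histone H3 and acts with corepressors such as CoREST at enhancers and promoters.

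The isolated sites were low peaks on a quiet background. Their summits were covered by a median of 13 fragments (interquartile range 11 to 16, lowest 7, highest 35). Other vehicle-only sites, which had a GSK2879552 summit within 100 kb, had a median of 14 (12 to 17), and shared vehicle peaks had 24 (17 to 35). Shared peaks were thus far taller, whereas the 2 classes of vehicle-only peak overlapped over most of their range. Only 159 isolated sites (7.61%, 6.51 to 8.83) had 20 or more fragments, against 15.4% (14.5 to 16.4) of the other vehicle-only sites and 65.3% (64.5 to 66.1) of shared peaks. At 25 or more fragments 33 isolated sites were left.

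**Figure D1:**
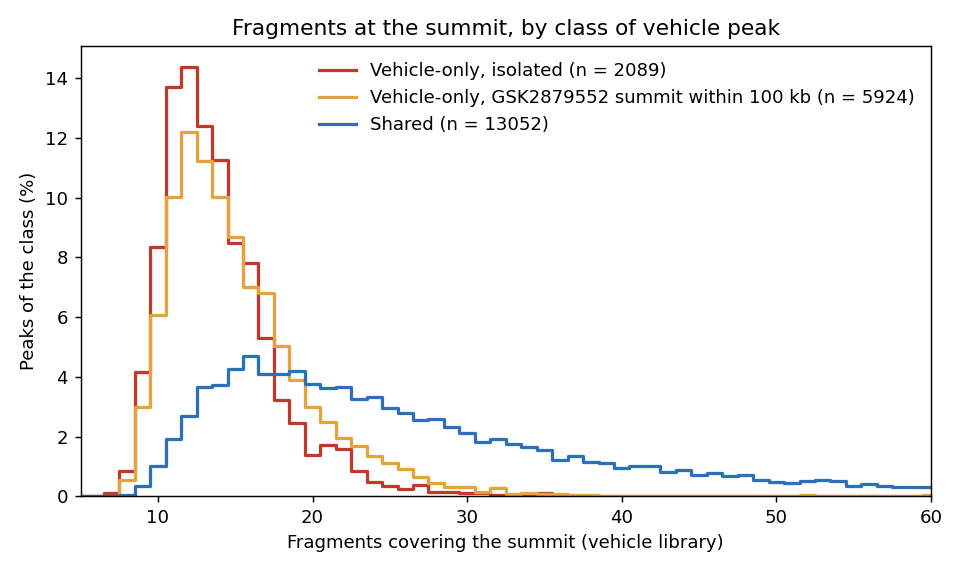
Percentage of peaks (vertical axis) by the number of fragments covering the summit in the vehicle library (horizontal axis) for isolated vehicle-only sites (red), other vehicle-only sites (orange) and shared peaks (blue). The red curve lies slightly left of the orange one, with medians of 13 and 14 fragments, and both lie left of the shared peaks, whose median is 24.

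The local background, recovered from fold and −log10 p, is the number of fragments expected at a position. It is read here as coming from the reads around the position, and its floor of 1.08 as the average over the genome. That reading assumes that no control library was used. At isolated sites it was 1.24 (interquartile range 1.08 to 1.54), at other vehicle-only sites 1.51 (1.23 to 2.05) and at shared peaks 1.85 (1.40 to 2.54). The floor itself was reached at 29.2% (27.3 to 31.2) of isolated sites, 12.7% (11.9 to 13.6) of other vehicle-only sites and 6.25% (5.84 to 6.68) of shared peaks. On that reading, isolated sites lay more often where reads were no denser than the genome average. Fold enrichment, the authors' ratio of fragments to background with 1 added to both, was higher at isolated sites (median 6.07, 5.29 to 6.98) than at other vehicle-only sites (5.77, 5.03 to 6.69), although the isolated sites had fewer fragments. With fewer fragments over a lower background, the median −log10 p was 9.80 in both vehicle-only classes. Shared peaks had a higher median fold (8.44) and a higher median −log10 p (18.6). The lower background was found at equal strength too. All vehicle peaks were divided by −log10 p into 10 bins of equal size. The median background of isolated sites was lower than that of other vehicle-only sites in each of the 9 bins that held any. Examples are 1.26 against 1.44 in the weakest bin and 1.35 against 1.73 in bin 7. Part of this gap may follow from the rule, because a background built from the vehicle reads can be raised by a nearby peak. Another vehicle summit lay within 4755 bp of 4.98% of isolated sites and of 19.8% of other vehicle-only sites. Matching on −log10 p does not remove this, and how much it accounts for was not tested. None of the 2089 sites was at a position with a background of 25 fragments or more, which allows a share of up to 0.144% (3 counts of the total); 6 of 5924 other vehicle-only sites (0.101%) and 120 of 13052 shared peaks (0.919%) were.

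The shape of the isolated peaks resembled that of the other vehicle-only peaks. Their median width was 209 bp (182 to 246), against 212 bp (184 to 248) for other vehicle-only sites and 290 bp (245 to 340) for shared peaks. The shortest interval in the vehicle list, 175 bp, was seen for 18.2% (16.6 to 19.9) of isolated sites, 16.6% (15.7 to 17.6) of other vehicle-only sites and 2.37% (2.11 to 2.64) of shared peaks. Width followed strength: isolated sites in the weakest bin had a median width of 183.5 bp, those in bin 5 had 227 bp and the 46 in bin 8 had 289.5 bp. The summit lay near the centre of the interval in both, at a median of 47.7% of its length from the left end in isolated sites and 48.3% in other vehicle-only sites.

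The strongest isolated site was at chr10:12511451-12511736 (hg19), with 31 fragments at the summit and a fold enrichment of 13.0; no GSK2879552 summit lay nearer than 118845 bp. It ranked 2799th of the vehicle peaks by −log10 p, so 2798 vehicle peaks were stronger, and 2796 of these were shared. The second, at chr18:42101074-42101386, had 30 fragments and stood 288501 bp from a GSK2879552 summit and 288597 bp from the next vehicle summit. The first had another isolated site 13611 bp away, whereas the second had no neighbour in either list for over 200 kb. At chr16:10678744-10679065, where 29 fragments covered the summit, GSK2879552 and vehicle neighbours were 1331743 and 1101336 bp distant. Among the 10 strongest, this site was the most remote from summits of both lists.

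The site at chr1:234748257-234748536 had 26 fragments over a background at the floor. At chr13:101016188-101016443 there were 29 fragments, and another isolated site lay 4682 bp away. The site at chr9:107950090-107950339 had 27 fragments and a companion, also isolated, at 19112 bp. Companions of this kind were likewise vehicle-only, which the rule makes nearly certain so close to an isolated site. In these places a small group of peaks was called in vehicle and none after GSK2879552. Next came chr17:60188519-60188839 with 35 fragments, the most of any isolated site, over a background of 2.92. The site at chr13:50940097-50940610, with 27 fragments, was 514 bp wide, the widest of the strongest 100. At chr14:52119855-52120105 there were again 35 fragments, over a background of 3.01. Both sites with 35 fragments ranked lower than sites with fewer because their backgrounds were higher. The tenth, chr1:178873336-178873607, had 24 fragments over the floor and a GSK2879552 summit 665611 bp away. The narrowest of the strongest 100 was chr1:43585634-43585832, 199 bp wide with 21 fragments.

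For comparison, the fewest fragments at any GSK2879552 peak with no other GSK2879552 summit within 100 kb was 7, the 5th percentile of these 3483 peaks was 10 and their median was 15. The median isolated site, with 13 fragments in vehicle, lay below that median, and the 10 strongest, picked for their strength, had 24 to 35. No called GSK2879552 interval was shorter than 168 bp. Calling options were not given and a minimum width may have applied, so these numbers set no upper bound on the fragments present there. A site in the vehicle list alone is one where no GSK2879552 peak was called, not one shown to be unbound.

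Distances to the nearest GSK2879552 summit ran from just over the limit to several megabases. The median was 182393 bp (interquartile range 131986 to 287479); 917 sites (43.9%) were more than 200 kb away, 168 (8.04%) more than 500 kb and 31 (1.48%) more than 1000000 bp. The limit cut through a continuous range. In windows of 20 kb on its 2 sides there were 476 vehicle-only sites (80000 to 100000 bp, median 13 fragments) and 346 (100000 to 120000 bp, median 14 fragments). Just inside the limit were chr13:90063328-90063616 at 100032 bp with 17 fragments, chr12:118291446-118291669 at 100036 bp with 22 and chr7:23114620-23114976 at 100079 bp with 17. Just outside were chr5:74034194-74034370 at 99960 bp with 8 fragments, chr3:119832464-119832693 at 99921 bp with 13 and chr1:42905682-42905931 at 99817 bp with 15.

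Height changed little with remoteness, whereas the background was lower beyond 250000 bp than near the limit. The 429 sites at 100000 to 125000 bp had a median of 13 fragments, the 486 at 250000 to 500000 bp also 13, and the 137 at 500000 to 1000000 bp 12. Over the same classes the median background was 1.36, 1.17 and 1.10, and the share of sites at the floor was 17.9%, 38.7% and 47.4%. The 31 sites beyond 1000000 bp had 12 fragments and did not continue this order, with a background of 1.14 and 45.2% at the floor. Median fold enrichment stayed between 5.98 and 6.25 over all 6 distance classes. The share of sites with no vehicle summit within 100 kb was 48.0% in the nearest class and 93.5% among the 31 sites beyond 1000000 bp.

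The 5 most remote sites lay on 3 chromosomes. The farthest, chr10:84882229-84882403, was 2899701 bp from a GSK2879552 summit and 2899633 bp from a vehicle summit, and had 9 fragments over the floor in an interval of 175 bp. On chromosome X, chrX:4856117-4856358, chrX:4748980-4749189 and chrX:4586965-4587174 were 2182504, 2123584 and 1961538 bp from a GSK2879552 summit, with 16, 11 and 15 fragments. All 3 had a background at the floor, and each was 107092 or 162046 bp from its nearest vehicle neighbour. The remaining site, chr3:2413958-2414212, had 17 fragments at 1991426 bp. The most remote sites were thus not the tallest, and the farthest of all ranked 20332nd of 21065 vehicle peaks by −log10 p.

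**Figure D2:**
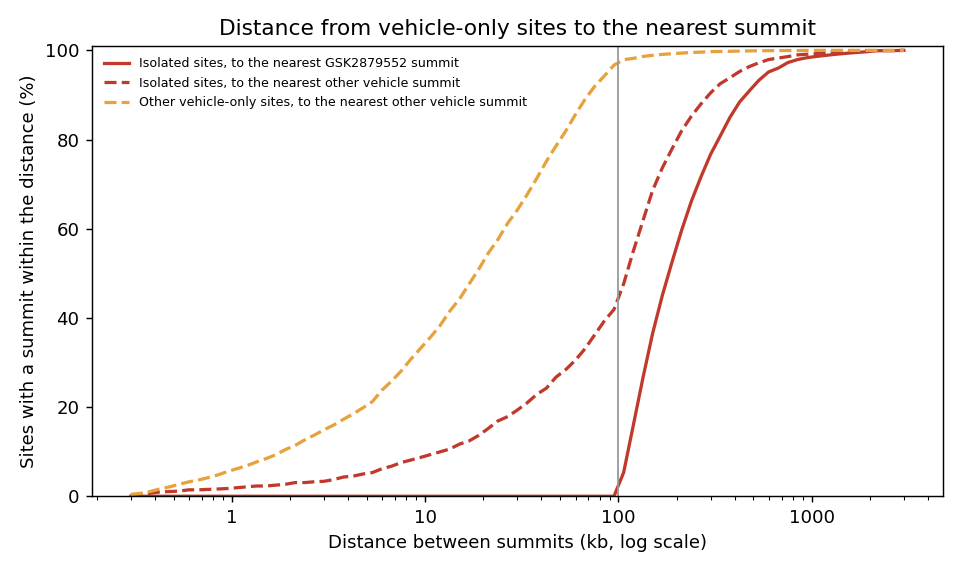
Percentage of sites (vertical axis) with a summit within a given distance (horizontal axis, kb, log scale); solid red shows isolated sites to GSK2879552 summits, dashed red isolated sites to other vehicle summits, dashed orange the other vehicle-only sites to other vehicle summits, and the grey line marks 100 kb. The solid curve starts at the limit by construction, while 43.0% of isolated sites had a vehicle summit within 100 kb.

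Isolated sites were sparse in the vehicle list as well, though not always single. The nearest other vehicle summit was a median of 110435 bp away (43338 to 174267), against 18344 bp (6388 to 42175) for other vehicle-only sites; a large distance to GSK2879552 summits makes a nearby shared peak nearly impossible, so part of this gap follows from the rule. Of the 899 sites with a vehicle summit within 100 kb, the nearest was another isolated site for 723, a vehicle-only site closer to GSK2879552 peaks for 175 and a shared peak for 1. The remaining 1190 sites (57.0%) had no vehicle company within 100 kb. They had the same median number of fragments, 13, as the sites with company and a lower median background (1.19 against 1.33).

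Small groups of isolated sites were found. Another isolated site lay within 100 kb of 735 sites (35.2%, 33.1 to 37.3), within 12.5 kb of 209 (10.0%, 8.75 to 11.4) and within 1 kb of 40 (1.91%, 1.37 to 2.60). Close neighbours were not particular to isolated sites. Any other vehicle summit lay within 11943 bp of 9.96% of isolated sites and of 38.3% of other vehicle-only sites, a gap that in part follows from the rule. Linking summits no more than 12.5 kb apart gave 94 pairs and 7 groups of 3, with 1880 sites left single. The group with the most fragments, chosen after its values were seen, was chr21:43378320-43386627, where summits with 21, 22 and 25 fragments lay within 8019 bp with no GSK2879552 summit nearer than 190840 bp to the first of them. The closest pair, also chosen after its values were seen, was chr17:30170169-30170358 and chr17:30170474-30170650, whose summits were 298 bp apart with 13 fragments each.

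Between successive GSK2879552 summits, 1334 stretches held at least 1 isolated site, 13 of them at a chromosome end. The 1321 stretches bounded on both sides had a median length of 558 kb (375 to 895). They were 33.1% of the 3993 stretches longer than 200 kb, the shortest that can hold such a site. Of the 437 stretches over 1 Mb, 270 (61.8%) held at least 1, with 550 sites in all. A single site was found in 846 stretches, 2 in 318, and 3 or more in 170; 1243 sites shared their stretch with another.

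The stretch with the most isolated sites, 8, ran from 144803173 to 145812159 on chromosome 7. Its sites had 10, 11, 10, 10, 11, 16, 21 and 18 fragments in order along the chromosome, and the last 5 lay between chr7:145607453 and chr7:145694619. The tallest was chr7:145672261-145672473, 139799 bp from the GSK2879552 summit on the right. At that right end a shared peak had 16 fragments in vehicle and 15 after GSK2879552, and at the left end a shared peak had 37 and 20. The tallest of the vehicle-only summits here therefore had more fragments in vehicle than the shared peak at the right end, but fewer than the one at the left.

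The second stretch, from 75400007 to 77129678 on chromosome 4, held 7 isolated sites with 11 to 14 fragments. Its first 3, between chr4:75546942 and chr4:75558164, had 11, 11 and 12 and form one of the groups of 3. A vehicle-only peak of 12 fragments at chr4:75486754-75487014 was 86857 bp from the left GSK2879552 summit and so was not counted. All peaks in this stretch were low, and none reached 15 fragments.

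There were 5 stretches with 6 isolated sites, of which the 3 longest are described; those left out lay on chromosome 22, from 28580257 to 29509472 with up to 19 fragments, and on chromosome 7, from 121222523 to 122097457 with up to 21. The longest spanned 2943810 bp on chromosome X, from 87625121 to 90568931. Its sites had 13, 11, 14, 12, 16 and 13 fragments, and the tallest, chrX:89387030-89387374, was 1181707 bp from a GSK2879552 summit. Apart from the shared peak at its right end, it held no other vehicle peak. On chromosome 1, from 25663215 to 27626076, the 6 sites had 12, 11, 18, 12, 19 and 12 fragments and all lay in the right-hand part, beyond chr1:26879332. Both GSK2879552 peaks that bound this stretch, with 8 and 14 fragments, overlapped no vehicle peak. On chromosome 4, from 149596192 to 150919255, the 6 sites had 13, 11, 13, 14, 13 and 11 fragments. The sites of this last stretch differed by no more than 3 fragments and, except for the fourth, lay over a background at the floor.

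**Figure D3:**
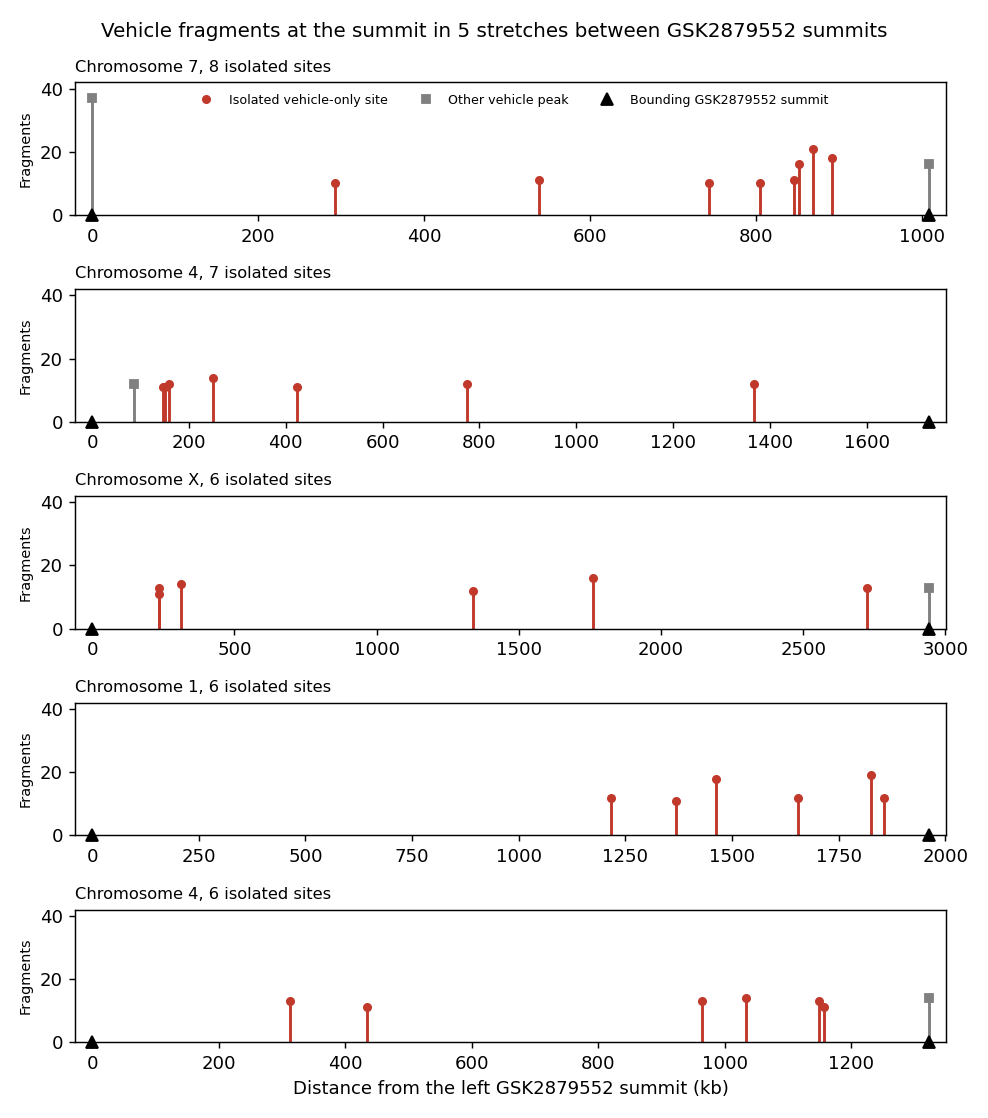
Fragments at the summit of vehicle peaks (vertical axis) by distance in kb from the left GSK2879552 summit (horizontal axis, a scale of its own in each panel) in 5 stretches with the most isolated sites, where the 3 longest of 5 stretches tied at 6 sites are drawn; red circles are isolated sites, grey squares other vehicle peaks and black triangles the GSK2879552 summits that bound the stretch. On chromosome 7 the sites crowd to the right, with up to 21 fragments, while the 7 sites of the chromosome 4 stretch below it have 11 to 14.

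Across chromosomes the share of vehicle peaks that were isolated and vehicle-only ran from 5.96% on chromosome 10 (67 of 1124 peaks, interval 4.65 to 7.51) to 21.7% on chromosome 22 (25 of 115, 14.6 to 30.4). On chromosome X 122 of 610 peaks were isolated (interval 16.9% to 23.4%), and on chromosome 19 39 of 196 (19.9%, 14.5 to 26.2). Chromosomes 3, 21, 8, 14 and 18 were low, between 6.16% and 7.22%. The share was lower where vehicle peaks were denser: over the 23 chromosomes it had a Pearson correlation of -0.87 (Spearman -0.91) with vehicle peaks per Mb. The points share 1 library pair and the denominator, and a denser list leaves less room beyond 100 kb, so the correlation is a description. Isolated sites per Mb showed no such order, with a Pearson correlation of 0.08 (Spearman -0.03). They numbered 0.389 per Mb on chromosome 16, 0.496 on chromosome 10 and 0.575 to 0.825 on the other 21.

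**Figure D4:**
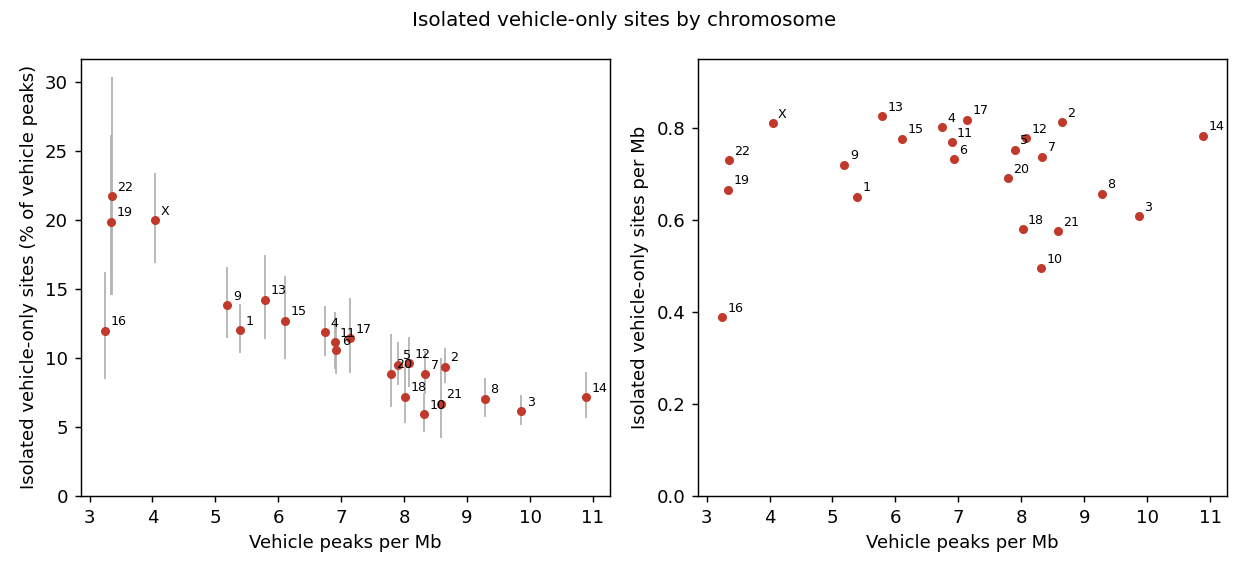
Isolated vehicle-only sites as a percentage of vehicle peaks with 95% exact binomial intervals (left) and per Mb (right) against vehicle peaks per Mb, 1 labelled point per chromosome. The percentage is lower where peaks are denser (21.7% on chromosome 22, 7.19% on chromosome 14, which has the most peaks per Mb), whereas the number per Mb shows no slope.

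Chromosome X combined a high share of isolated sites among its vehicle peaks with few reads at these sites. The median number of fragments was 12, as on chromosomes 13 and 16, and 63.9% of its isolated sites were at the background floor, the highest share of any chromosome. Chromosomes 13 (59.0%), 22 (52.0%) and 9 (50.5%) followed, whereas no isolated site on chromosomes 20 or 21 was at the floor. A high floor share on these chromosomes was not particular to isolated sites. Among other vehicle-only sites it was 39.8% on X, 44.8% on 13, 41.7% on 22 and 37.8% on 9, against 12.7% over all chromosomes. The floor share was at least as high in isolated as in other vehicle-only sites on every chromosome but 21. Median fragments per chromosome ranged from 12 to 15.

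Whether remoteness went with being called in one list alone was described over all vehicle peaks. Vehicle peaks whose neighbourhood of 100 kb held no GSK2879552 summit other than that of an overlapping peak numbered 5107; these comprise the 2089 isolated sites and 3018 shared peaks. The retained share, meaning the share that overlapped a GSK2879552 peak, was 59.1% (57.7 to 60.4) for them and 62.9% (62.1 to 63.6) for the 15958 peaks with another GSK2879552 summit in reach. The remote peaks had fewer fragments (median 16 against 19). Within bins of equal −log10 p the shares lay closer in most bins, with the remote share lower in 7 bins and higher in 2. They were 18.8% against 19.7% in bin 1, 53.6% against 54.5% in bin 5 and 91.2% against 92.9% in bin 8. Bin 10 had 100% in both. The gap was widest in bin 2 (22.2% against 27.9%) and next in bin 3 (31.6% against 35.0%). The mean difference over the 10 bins, remote minus other, was -1.13 percentage points (95% interval -2.34 to 0.07, counting error only), with a range of -5.74 to 1.87. Both the grouping and the overlap come from the same 2 lists, 1 per group. The interval therefore describes these lists and is no test of remoteness.

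The order turned when peaks were matched on fragments instead, an analysis chosen after seeing the data. At 18 to 20 fragments, 74.4% (70.6 to 77.9) of remote peaks and 61.8% (59.5 to 64.0) of the others overlapped a GSK2879552 peak. At 21 to 25 fragments the shares were 84.5% and 76.3%, and at 7 to 9 fragments 11.6% and 15.3%. Over 8 fragment bins the mean difference was 3.57 points (2.15 to 5.00, counting error only), again a description of the 2 lists. The median background of remote peaks was lower in each of these bins, for example 1.40 against 1.75 at 18 to 20 fragments. Remote peaks thus had a lower median background than other peaks of equal height, and their lower or higher retained share depended on which measure of strength was held equal. At equal fragments a lower background gives a higher −log10 p by definition, so fragment bins do not hold −log10 p equal. The retained share of remote peaks rose with −log10 p, from 18.8% in bin 1 to 100% in bin 10. How much of the turn this accounts for was not tested.

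**Figure D5:**
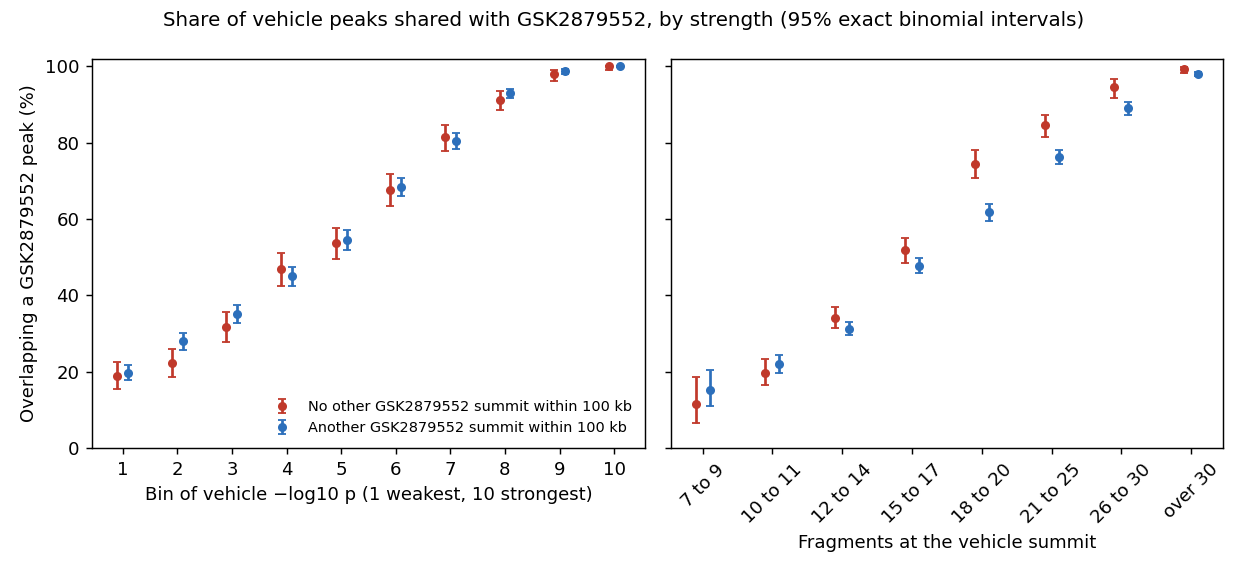
Percentage of vehicle peaks overlapping a GSK2879552 peak (vertical axis, 95% exact binomial intervals) for peaks without (red) and with (blue) another GSK2879552 summit within 100 kb, by bin of −log10 p (left) and by fragments at the summit (right). The 2 colours lie close together on the left, with the widest gap in bin 2 (22.2% against 27.9%). On the right, red lies above blue from 12 fragments upward, by up to 12.6 points.

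The rule with the lists exchanged found few sites. Isolated GSK2879552-only sites numbered 305, which is 2.08% of the 14642 GSK2879552 peaks on these chromosomes and 19.5% (17.6 to 21.6) of the 1564 GSK2879552-only peaks; GSK2879552-only peaks were 10.7% of that list. The vehicle list is longer and leaves less room beyond 100 kb, so the numbers 2089 and 305 do not compare like with like. These sites had a median of 12 fragments (11 to 13) in their own library and a background of 1.13 (1.08 to 1.33). As in vehicle, they were lower and quieter than the other sites of the list alone, which had 13 fragments (11 to 15) and 1.43 (1.18 to 1.90). The strongest was chr7:42685614-42685871, with 27 fragments and the nearest vehicle summit 166166 bp away.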

How the data were processed

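FOXA2 ChIP-seq peak lists of PC3 cells, 1 for vehicle and 1 for GSK2879552, were analysed as deposited. The submitters' processing notes name MACS2 2.1.2, BWA 0.7.2 and SAMtools 0.1.18, and hg19 (GRCh37) as the build. Calling options, threshold, duplicate handling and control, if any, were not given in the sources used here. Fold (a ratio over local background), −log10 p-value and q-value, and score are the authors' deposited values, used to describe, rank and filter peaks within a list. Fragments at the summit and local background were recovered from fold and −log10 p: a whole number matched within 0.001 for 100% of peaks in both lists. A second number also matched for 3 vehicle and 7 GSK2879552 peaks, where the better match was kept. Overlap meant 1 bp or more, checked with bedtools 2.31.1; other steps used Python 3.11.15 with scipy 1.17.1, and the code was tested on simulated data. Intervals are exact (Clopper-Pearson) 95% binomial and cover counting error only; that of a mean difference over bins uses a normal approximation.

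Members, lists and alternatives were chosen with earlier results of these data known. Regions named are the 10 strongest and 5 most remote sites, the 5 stretches between GSK2879552 summits with the most sites (ties: the longer first), 3 sites at each side of the limit, the widest and narrowest of the strongest 100 and the strongest isolated GSK2879552-only site; a group of 3 and a closest pair were added after their values were seen. Alternatives were other distance limits, overlap rules, thresholds and the removal of high-background peaks. Gene location and sequence motifs were not analysed here.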

Additional observations from a re-analysis of the deposited data

How the results depend on the processing

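The number of isolated sites followed the distance limit: 3615 at 50 kb and 654 at 250 kb, which were 17.2% and 3.10% of vehicle peaks. At these limits 25.6% and 46.5% of sites had another within reach, the mirrored rule gave 586 and 88 sites, chromosome 22 had 33.0% and 6.96% and chromosome 10 had 12.6% and 2.14%. At 50 kb, 63.8% of peaks with another GSK2879552 summit in reach were retained. Taking peaks with under 50% of the interval shared gave 10.4% of vehicle peaks, and retained shares of 57.2% (remote) and 61.2% (other). With −log10 q held to 5 or more throughout, the isolated share was 12.3%, median fragments 14 and median width 219 bp, and retained shares were 57.0% and 61.5%. At 10 or more throughout these were 22.2%, 21, 271 bp, 51.7% and 57.7%, with 30.9% of sites having another in reach, 179 mirrored sites, 41.3% on chromosome 22 and 12.3% on chromosome 10. With the vehicle list alone at 5 or more, they were 8.75%, 14, 214 bp, 63.9% and 68.1%, with 29.99% in reach of another. A fold of at least 5 in both lists gave 12.3%, 14, 216 bp, 57.5% and 61.1%, with 38.2% in reach. Under each of these settings remote peaks had the lower retained share. Thresholds set on both lists thin the GSK2879552 list by construction, which can remove overlapping peaks and leave more room around remaining vehicle peaks. The isolated share was higher under them, and with the vehicle list alone restricted it was lower. The cause was not tested. Matching on fragments, chosen after seeing the data, turned the mean difference from -1.13 to 3.57 points. The other 37 of 80 values stayed within their interval or within 1.5 times the count, including 2880 sites with only the GSK2879552 list held to 5 or more, also chosen after seeing the data. Gene location and motif settings were not run, and neither lane could be left out because each list covers both. No paired analysis was possible because a group is represented by a single list. Depth may limit the calling of such weak sites, which was not tested.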
